A study of Mus musculus with 18 samples.

Results

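In mice that received iPSC-derived cells without the IFN-alpha mark, the tumour beside the injected cells was compared with the distant tumour on the other hindlimb. The comparison rested on 6 of the 18 libraries of the study, which were all libraries titled pMC_right (3 libraries, injected side) or pMC_left (3 libraries, distant side), and it covered all 14849 genes that had enough counts to be tested. Every mouse of the series was of the C57BL/6 strain. On day 0 each one was given 100000 MO4 cells, a B16F10 melanoma line that expresses ovalbumin, under the skin of both hindlimbs. In the pMC groups iPSC-pMCs were injected next to the right-hand tumour 3 times, with 1000000 cells each on day 5, day 6 and day 7, and the left-hand tumour had no injection. Tumour RNA was taken on day 11. Both sides therefore carried the same tumour line and came from treated mice, and they differed in the side and in the injection. Control tumours of both sides (3 libraries each) came from untreated mice, and IFN-alpha-pMC tumours of both sides (3 libraries each) from mice given IFN-α-iPSC-pMCs by the same schedule. The labels do not say whether the libraries of a group came from separate mice, nor whether a right and a left library with the same number came from 1 mouse, so p-values measure only the spread between these samples. In these bulk samples, fewer cells of a type and less RNA per cell cannot be told apart.

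A melanoma under the skin is a mixture of pigmented tumour cells, blood vessels, fibroblasts, macrophages and lymphocytes, with muscle and skin at its border. Cytotoxic T cells and NK cells kill with perforin and granzymes, and interferons raise antigen presentation and a set of antiviral genes in the cells that sense them. In growing tumours, cells far from vessels run short of oxygen. They stabilise the transcription factor HIF-1, which binds a short motif in DNA and turns on genes for glycolysis, for the removal of mitochondria and for the handling of acid.

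Markers of melanoma, the labelled tissue, were high in all 6 libraries. Dct, a melanin enzyme, was counted at 12700, 16070 and 18510 counts per 1000000 (CPM) on the right and at 12150, 13070 and 14770 CPM on the left, and Pmel, the fibril protein of melanosomes, was between 7388 and 9528 CPM. The 6 libraries held 15707029 to 22918778 counts on genes, and 17866 to 18702 gene IDs per library had counts. Spearman correlations over the tested genes were 0.986 to 0.992 within the right side, 0.993 to 0.995 within the left and 0.985 to 0.994 between the sides, so that pairs from opposite sides spanned the range of pairs from the right. A principal component analysis used the 1000 genes that varied most, and component 1 held 38.25% of their variance. On it right 1, 2 and 3 were at 2.25, 22.9 and -3.19, and left 1, 2 and 3 at -4.54, -8.38 and -9.07. All right libraries were thus above all left ones on component 1. Right 2 was far from the other 5 libraries, and right 3 was close to left 1.

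No gene passed the test between the injected and the distant tumour. Of the 14849 genes tested with edgeR's quasi-likelihood test, 0 had an adjusted p under 0.05 (0% of genes in either direction), and the smallest adjusted p was 0.95. At an unadjusted p under 0.05 there were 310 genes, of which 185 were higher on the right (1.25% of genes) and 125 lower (0.842%). DESeq2 called 0 genes and had 490 at an unadjusted p under 0.05. The median log2 fold change over all genes (right minus left) was -0.00019. For the 10761 genes with a mean of at least 5 CPM over the 6 libraries the median standard error was 0.21 on the log2 scale, and 9568 of them (88.9%) had a 95% interval that lay wholly within 1 log2 unit (2-fold) of equality. For most well-counted genes the intervals thus did not reach a 2-fold difference, and smaller differences were within them. When the 6 pMC libraries were fitted alone, 0 of 14026 genes passed (smallest adjusted p = 0.219 by edgeR), although 1139 genes (8.12%) were higher and 1031 (7.35%) lower at an unadjusted p under 0.05. That fit estimated its spread from 4 residual degrees of freedom. It gave a biological coefficient of variation of 13.6%, against 23.75% when all 18 libraries shared 1 estimate.

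**Figure D1:**
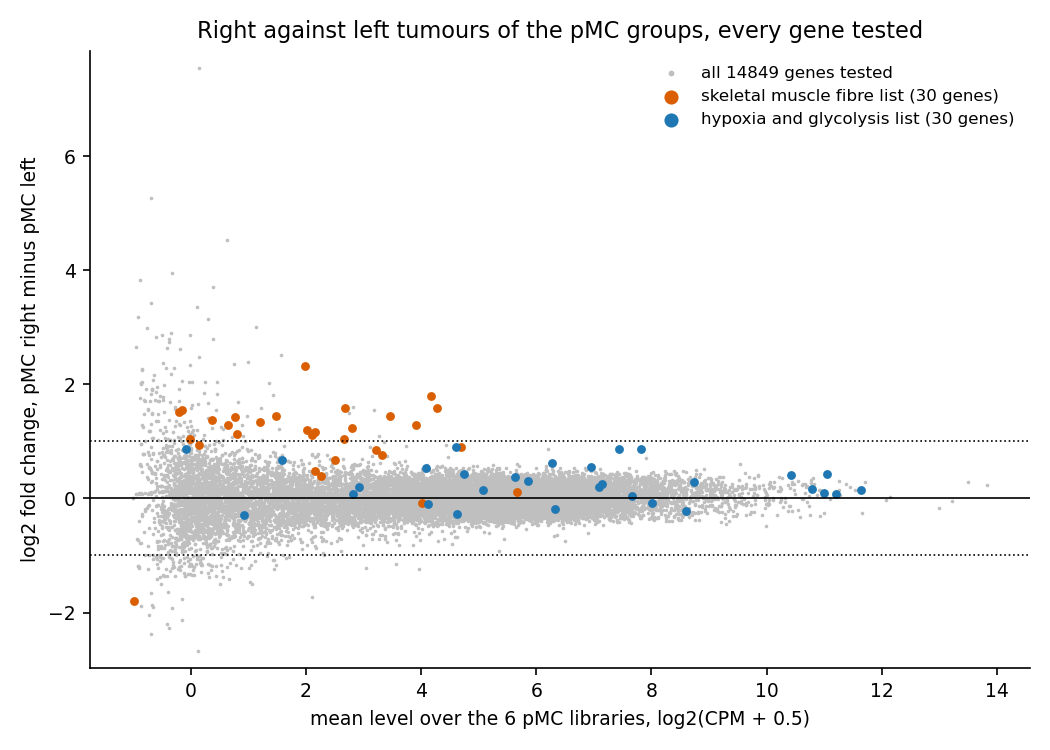
Log2 fold change of pMC right minus pMC left (vertical axis) against the mean level over the 6 pMC libraries, log2(CPM + 0.5) (horizontal axis), for each of the 14849 genes tested, with dotted lines at 1 log2 unit. Genes of the hypoxia and glycolysis list (blue) lie mostly a little above 0, genes of the skeletal muscle fibre list (orange) lie higher and at lower levels, and no gene of either list passed the adjusted threshold.

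Genes that cells turn on when short of oxygen were among those higher on the right in every library. Of the 30 genes tested on a list of hypoxia and glycolysis genes, 9 had all 3 right libraries above all 3 left ones, and 1 had the reverse order. Over all genes tested, 9.72% had all right libraries higher and 10.1% had all left libraries higher. The list's median log2 fold change was 0.22, and 24 of its 30 genes were above 0. No member passed the adjusted threshold, and 3 (Pdk1, Car9 and Aldoc) were higher at an unadjusted p under 0.05. Promoters of 2 of these genes are shown with a form of the HIF core motif, ACGTG, in capitals. Its reverse complement CACGT is marked too, so both strands were searched, and the overlapping pair in Bnip3 is written as 1 run. Other forms of the motif, such as GCGTG, were not searched or marked. Each window runs from 250 bases before to 50 after the gene's start, 5′ to 3′ on the gene's strand, from RefSeq on GRCm38.p6, which is a later build than the mm9 of the counts.
Bnip3, chr7:138909457-138909756, minus strand: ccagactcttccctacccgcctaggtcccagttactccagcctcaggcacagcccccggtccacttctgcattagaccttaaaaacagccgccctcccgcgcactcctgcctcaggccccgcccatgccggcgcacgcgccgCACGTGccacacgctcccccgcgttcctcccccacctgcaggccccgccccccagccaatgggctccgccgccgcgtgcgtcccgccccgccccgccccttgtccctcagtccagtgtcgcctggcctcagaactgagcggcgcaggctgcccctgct
Car9, chr4:43506776-43507075, plus strand: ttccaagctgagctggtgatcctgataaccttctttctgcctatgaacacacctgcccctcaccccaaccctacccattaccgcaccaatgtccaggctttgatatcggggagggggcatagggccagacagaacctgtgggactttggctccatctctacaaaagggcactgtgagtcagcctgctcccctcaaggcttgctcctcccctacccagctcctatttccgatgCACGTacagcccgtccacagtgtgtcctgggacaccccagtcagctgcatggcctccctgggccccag
The motif starts at position -108 from the gene's start in Bnip3 and at -18 in Car9. It was present in 19.6% of the 32851 promoter windows of this length in the table, and in 19.7% of the first listed windows of 27025 genes. Of the 9 list members that were higher on the right without overlap, 7 had it in their first listed window. So did 10 of the 20 other members with a window. The 9 were picked by these same values from a list of hypoxia genes. Whether the motif goes with the side difference was not tested. Pdk1 had neither ACGTG nor CACGT in either of its 2 windows. A match is a description of the letters and not a measured site.

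Bnip3 (ENSMUSG00000078566), a mitochondrial protein that marks mitochondria for removal, was at 295, 327 and 252 CPM in right 1, 2 and 3 and at 159, 164 and 157 CPM in left 1, 2 and 3. The lowest right library was above the highest left one by more than the whole spread of the left group. Its log2 fold change was 0.87 ± 0.48 (SE, 95% interval -0.15 to 1.89), with an unadjusted p of 0.0905 by edgeR in the fit of 18 libraries. In the fit of the 6 pMC libraries alone the same difference had an SE of 0.12, an unadjusted p of 1.56e-05 and an adjusted p of 0.219 by edgeR, the smallest of that fit. Bnip3 varied more in some other groups, between 63.25 and 259 CPM in right controls and between 181 and 698 CPM in left IFN-alpha-pMC tumours, and this spread enters the shared estimate.

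Pdk1 (pyruvate dehydrogenase kinase, which diverts pyruvate from mitochondria) was at 104, 99.3 and 76.6 CPM on the right and at 68.2, 51.0 and 63.5 CPM on the left. The groups did not overlap, with right 3 nearest to the left libraries. The log2 fold change was 0.61 ± 0.19 (95% interval 0.22 to 1.01, unadjusted p = 0.00439 by edgeR). Car9, a carbonic anhydrase that regulates pH in cells short of oxygen, was at 39.99, 34.2 and 19.5 CPM against 15.5, 15.1 and 19.5 CPM. Right 3 was above left 3 by less than the digits shown, so the separation of Car9 rested on right 1 and right 2 (0.90 ± 0.32). Higd1a, a mitochondrial protein induced by hypoxia, was at 130, 163 and 145 CPM against 103, 91.8 and 102 CPM (0.56 ± 0.32), without overlap. An exact permutation test of the library values (two-sided, 3 against 3) gave p = 0.1 for each of Bnip3, Pdk1, Car9 and Higd1a. That is the smallest p that 3 against 3 can give. Any gene whose sides do not overlap gives this p, so it adds nothing to the separation already stated. Over all genes tested, 9.72% had all right libraries higher and 10.1% all left ones.

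Glycolytic enzymes on the list varied in the size of their differences. Ldha, which turns pyruvate into lactate, was at 1572, 1722 and 1420 CPM on the right and 1256, 1048 and 1222 CPM on the left (0.42 ± 0.28). Pgk1, which yields ATP in glycolysis, was at 2162, 2583 and 2535 CPM against 1794, 1707 and 1925 CPM (0.42 ± 0.27). Both were higher on the right without overlap, as were Pgam1 (0.28 ± 0.19), the histone demethylase Kdm3a (0.25 ± 0.12) and Ankrd37 (0.68 ± 0.46). The enzymes Aldoa (0.14 ± 0.19), Pkm (0.07 ± 0.19) and Eno1 (0.10 ± 0.18) overlapped between the sides, and so did the glucose transporter Slc2a1 (0.30 ± 0.22) and the vessel growth factor Vegfa (0.37 ± 0.19). Slc2a1 and Vegfa were highest in right 1 (87.2 and 68.1 CPM) and lowest in right 3 (40.1 and 38.8 CPM), so the right libraries spanned the left ones. Pfkfb3, a regulator of glycolysis, was the member with all left libraries higher (24.0, 20.7 and 20.9 CPM on the right, 25.95, 27.2 and 26.2 on the left, -0.27 ± 0.22). Gapdh, another glycolytic enzyme, was at 613, 17.6 and 42.3 CPM on the right and 22, 52.7 and 293 CPM on the left. Right 1 and left 3 were far above the other 4 libraries, and the difference of 0.87 ± 1.18 became -2.03 without right 1 and 2.59 without left 3. The summed CPM of the list was 18220, 17010 and 14160 on the right and 14060, 13590 and 15100 on the left, so right 3 lay among the left libraries. Without right 1 the list's median was 0.10. Fam162a and Bnip3l, 2 more hypoxia-induced genes chosen after their values were seen, were at 118, 115 and 110 against 83.0, 87.0 and 79.85 CPM and at 205.5, 238 and 254 against 161, 146.5 and 172 CPM.

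**Figure D2:**
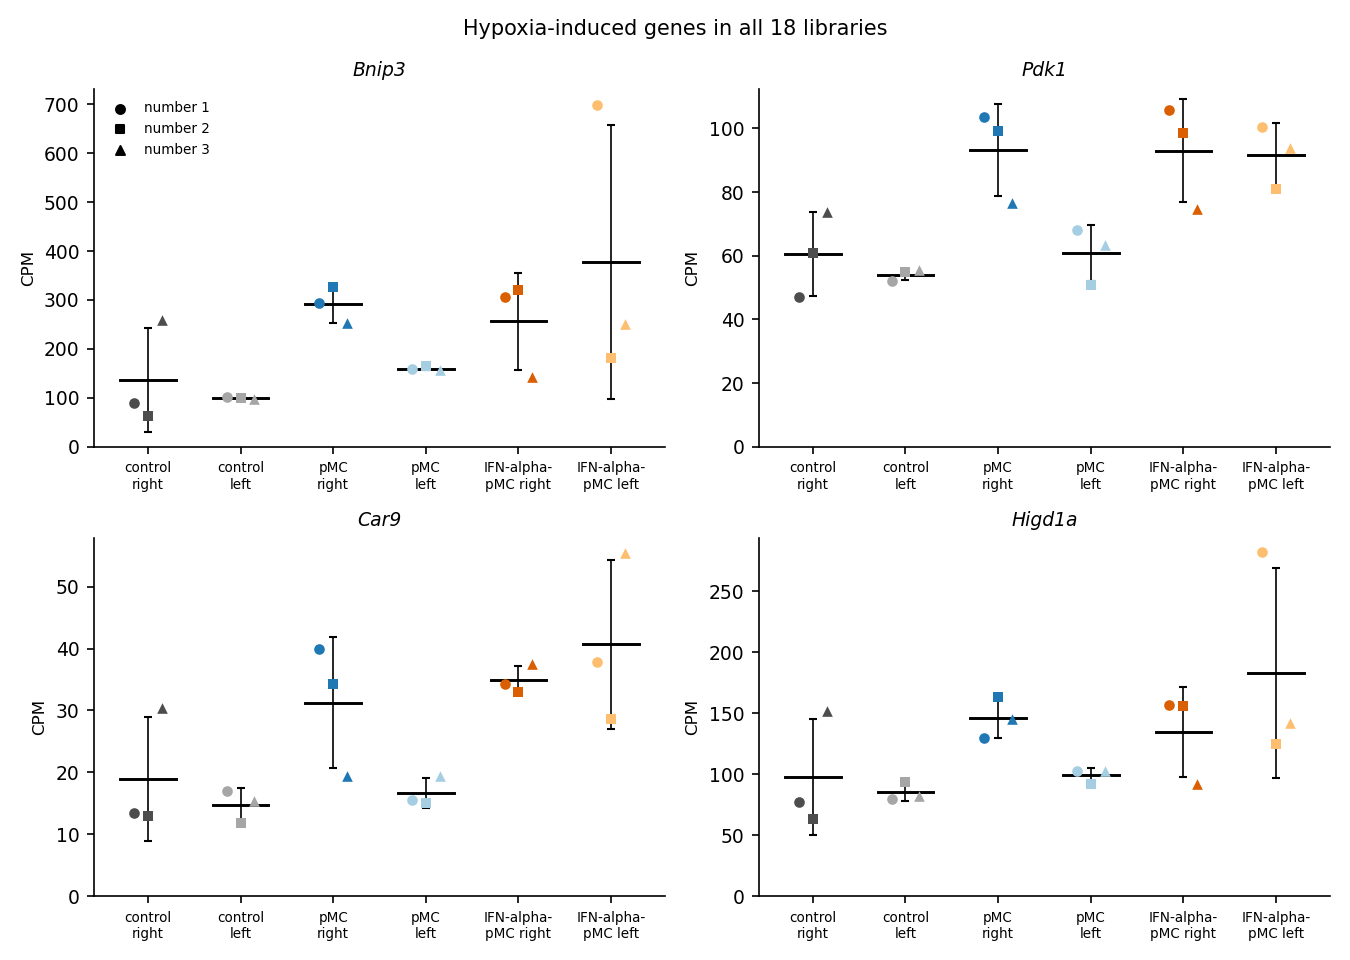
CPM of Bnip3, Pdk1, Car9 and Higd1a in each of the 18 libraries (points, shaped by library number), with the mean (line) and SD (bars) of each group of 3. The 3 pMC right libraries are above the 3 pMC left ones for Bnip3 (252 to 327 against 157 to 164 CPM), and the SD of Bnip3 is 106 CPM in control right and 280 CPM in IFN-alpha-pMC left.

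The same genes gave other differences between the sides in the other treatments, each from its own libraries. Bnip3 stood at 0.47 ± 0.48 in control mice and at -0.56 ± 0.48 in IFN-alpha-pMC mice, and Car9 at 0.35 ± 0.33 and -0.22 ± 0.32. In the same order, Pdk1 stood at 0.16 ± 0.19 and 0.02 ± 0.19, and Higd1a at 0.19 ± 0.32 and -0.44 ± 0.32. The median of the whole hypoxia and glycolysis list was 0.09 in control mice and 0.12 in IFN-alpha-pMC mice. None of these genes had a side difference in pMC mice that differed from that in the other treatments past the adjusted threshold. For Bnip3 the gap to the IFN-alpha-pMC side difference was 1.42 ± 0.68 (adjusted p = 0.427 by edgeR) and for Car9 1.125 ± 0.45 (adjusted p = 0.372 by edgeR).

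Killer lymphocyte genes had few counts on both sides, and none passed the test. Gzmb, the granzyme that triggers death of the target cell, was at 3.98, 7.87 and 5.835 CPM on the right and 3.61, 4.14 and 4.14 CPM on the left. Right 1 lay within the left libraries, and the difference was 0.58 ± 0.40 (95% interval -0.27 to 1.43, exact permutation p = 0.3). Prf1, the pore-forming perforin, was at 2.43, 2.21 and 1.61 CPM against 1.76, 2.07 and 1.83 CPM (0.15 ± 0.36, exact permutation p = 0.6), and the sides overlapped. Of 21 tested genes of the NK and cytotoxic lymphocyte list, 17 were above 0 with a median of 0.38, and none separated the sides. The median was 0.07 without right 3 and 0.61 without right 1. The list's median side difference was 0.37 in control mice and 1.72 in IFN-alpha-pMC mice. The fit of the 6 pMC libraries less right 1, chosen after the data were seen, called 1734 of 14358 genes, 966 higher and 768 lower. Of the 19 NK and cytotoxic genes in that fit, 3 were called higher, among them Gzmb (0.80 ± 0.21, adjusted p = 0.0377 by edgeR), and 0 lower. Right 1 was the lowest right library in Gzmb, so leaving it out favoured this call. The same fit less right 3 called 6 genes, none of them on this list, and less any other single library it called 0. Ccl5, a T cell chemoattractant, was at 0.04 ± 0.19. Cd8a, the co-receptor of killer T cells, was at 2.54, 7.87 and 5.62 CPM against 4.597, 6.15 and 4.75 CPM (0.06 ± 0.37), with right 1 lowest of the 6 libraries. Of the 26 T cell genes, 1 (the kinase Lck) was higher on the right without overlap and 1 (Trac, a T cell receptor chain) on the left. Among all genes tested, 9.72% and 10.1% were so. The T cell list's median was -0.06. Without right 1 the median was 0.17, and without left 2 it was 0.13, so its sign rested on these libraries. The T cell checkpoint list had a median of -0.00038 (0.26 without right 1 and -0.22 without right 3), and none of its 16 genes separated the sides. Its gene Cd274, which encodes PD-L1, was at 61.7, 67.1 and 70.4 CPM against 66.2, 65.6 and 61.9 CPM (0.04 ± 0.26). B and plasma cell genes (median 0.19 over 11 genes) included Ighm at 0.08 ± 0.23 and Igkc at -0.06 ± 0.38.

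Macrophage and dendritic cell genes had small differences. The 28 monocyte and macrophage genes had a median of 0.08, and 1 of them (the scavenger receptor Cd163) was higher on the right without overlap. Among all genes tested, 9.72% were higher on the right without overlap and 10.1% on the left. Apoe was at 0.00 ± 0.16 and the complement gene C1qb at 0.05 ± 0.27. Lyz2, lysozyme of myeloid cells, was at 286, 444 and 808 CPM on the right and 375, 747 and 540 CPM on the left, a wide range within each side and no separation. Ly6c2, a marker of inflammatory monocytes, was at 8.68, 8.635 and 9.74 CPM against 9.28, 9.48 and 6.71 CPM (0.09 ± 0.29). Of 18 dendritic cell genes (median -0.06), Xcr1, the receptor of cross-presenting dendritic cells, was higher on the right without overlap (2.38, 3.50 and 3.32 against 1.76, 1.82 and 2.22 CPM, 0.66 ± 0.34), and Cacnb3 and Itgae were higher on the left. Neutrophil genes were near the limit of counting. Of 18 listed, 6 could be tested. Mmp9, a matrix protease, was the 1 of them without overlap (1.52 ± 0.80). Ly6g had 0 counts in all 6 libraries, where a count of 0 allows up to 0.129 to 0.188 CPM per library. That limit covers counting error only.

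**Figure D3:**
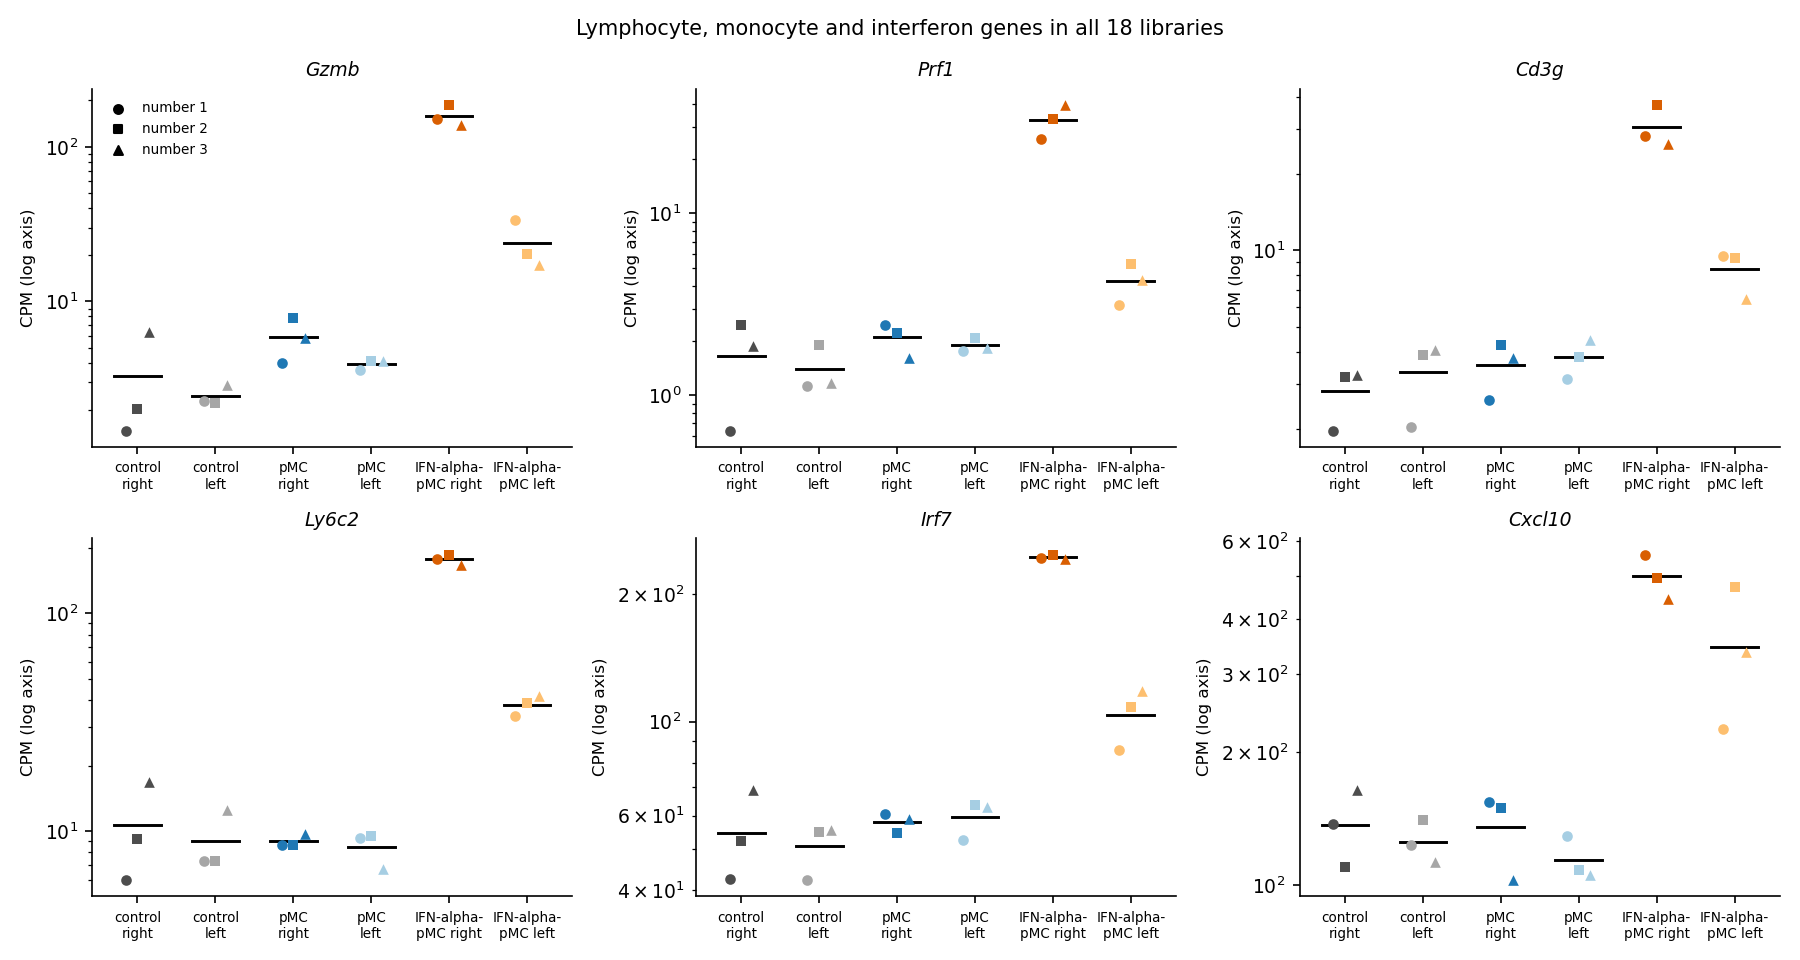
CPM (log axis) of Gzmb, Prf1, Cd3g, Ly6c2, Irf7 and Cxcl10 in each of the 18 libraries (points, shaped by library number), with the mean of each group of 3 as a line. The pMC right and pMC left points overlap for each of the 6 genes, and the IFN-alpha-pMC right points lie above both.

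Interferon-induced genes had small differences, and none passed the test. Of the 40 type I interferon response genes, 10 had all right libraries higher and 1 (Stat2) all left libraries higher, where 9.72% and 10.1% of all genes did so. The list's median side difference was 0.09 in pMC mice, 0.08 in control mice and 0.32 in IFN-alpha-pMC mice. The largest of the 10 was Ifit1, an antiviral RNA-binding protein, at 112, 119 and 120 CPM on the right and 98.8, 76.4 and 87.7 CPM on the left. Its sides did not overlap, at 0.42 ± 0.18 (95% interval 0.03 to 0.81, unadjusted p = 0.0368 by edgeR). Ifit3 (0.24 ± 0.18), the nucleic acid sensor Zbp1 (0.24 ± 0.20), Rtp4 (0.28 ± 0.20), Cmpk2 (0.27 ± 0.20) and Usp18 (0.23 ± 0.20) were likewise higher in every right library. Irf7, the factor that amplifies type I interferon, was not, at 60.4, 54.5 and 58.8 CPM against 52.7, 63.6 and 62.8 CPM (-0.04 ± 0.18). The receptor side was slightly lower, with the kinase Jak1 higher in all left libraries (-0.15 ± 0.20) and Ifnar1 at -0.11 ± 0.17. Among the interferon genes themselves, Ifna2 and Ifna4 had 0 counts in all 18 libraries and Ifnb1 had 4 counts over the right and 2 over the left libraries.

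Of 24 interferon-gamma response genes, 6 were higher on the right without overlap and 1 (Irgm2) on the left (9.72% and 10.1% of all genes), with a median of 0.14. In control mice the list's median side difference was 0.05, and in IFN-alpha-pMC mice it was 0.30. Iigp1, a GTPase that attacks vacuoles of intracellular parasites, was at 686, 1032 and 966 CPM on the right and at 632, 517 and 614 CPM on the left. All 3 right libraries were higher, with right 1 nearest to the left side, and the difference was 0.61 ± 0.26 (unadjusted p = 0.0344 by edgeR). Gbp4 (0.43 ± 0.28), Tgtp1 (0.35 ± 0.26), Gbp2 (0.28 ± 0.21) and Irf1 (0.22 ± 0.17) had the same order. The chemokine Cxcl10 overlapped at 154, 150 and 103 CPM against 129, 108 and 105 CPM (0.25 ± 0.23). Antigen presentation genes were spread around 0. The median was -0.03 over 19 MHC class I genes and 0.05 over 13 MHC class II genes. B2m was at -0.03 ± 0.23, H2-D1 at -0.07 ± 0.19, H2-K1 at -0.12 ± 0.23 and the class II chaperone Cd74 at -0.28 ± 0.27. Psme1, a proteasome activator, was higher in all right libraries (0.26 ± 0.28), and Tap2, a peptide pump, in all left ones (-0.20 ± 0.20).

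Genes of the pigment cell lineage had small differences in either direction. Over 23 melanocyte and pigment genes the median was -0.05. Dct was at 0.24 ± 0.26, Tyrp1 at -0.05 ± 0.16 and Pmel at -0.17 ± 0.17, and each had a 95% interval within 1 log2 unit. Mitf, the master factor of the lineage, was at 1762, 2133 and 1996 CPM on the right and 1736, 1442 and 1784 CPM on the left, with right 1 inside the left range (0.25 ± 0.18). The receptor kinase Met (-0.22 ± 0.23), the pigment gene Gpr143 (-0.10 ± 0.14) and Cdh1 (-0.40 ± 0.22) were higher in all left libraries, and Rab27a, which moves melanosomes, in all right ones (0.13 ± 0.15). Of 33 proliferation genes, 5 were higher on the right without overlap and 1 (Cenpe) on the left, with a median of 0.09. Over all genes these shares were 9.72% and 10.1%. In control mice the median side difference of the proliferation list was 0.18. Bub1, a mitotic checkpoint kinase, was at 80.8, 84.5 and 86.9 CPM against 71.4, 56.4 and 69.7 CPM, a separation of 0.35 ± 0.16 (unadjusted p = 0.0397 by edgeR). Birc5 (0.39 ± 0.25) and Ccne1 (0.30 ± 0.18) were ordered the same way, and Mki67 was at -0.03 ± 0.41.

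Genes of biosynthesis, stress and respiration were on 4 lists. Of 22 cholesterol synthesis genes, 6 were higher on the right without overlap and 0 on the left (median 0.19). Cyp51, a sterol demethylase, was at 385, 458 and 338 CPM on the right and 314, 250 and 307 CPM on the left (0.44 ± 0.20, unadjusted p = 0.04235 by edgeR), and Idi1 was at 65.0, 98.1 and 92.9 CPM against 58.5, 51.0 and 62.6 CPM (0.57 ± 0.34). In both genes every right library was above every left one. The summed CPM of the cholesterol list did not follow the sides, at 3114, 3175 and 2466 on the right and 2696, 2501 and 2663 on the left, with right 3 the lowest of the 6 libraries. In the fit of the 6 libraries less right 1, chosen after the data were seen, 2 of 22 genes of the list were called higher and 2 lower. Of all 14358 genes in that fit, 966 were called higher and 768 lower. Of 40 cytosolic ribosomal protein genes, 10 were higher on the right without overlap and 0 on the left (median 0.15), among them Rplp0 (0.27 ± 0.41), Rpl7 (0.41 ± 0.35) and Rpl3 (0.40 ± 0.32), each with an SE close to the size of its difference. Of 25 genes of the unfolded protein and ATF4 stress list, 6 were higher on the right without overlap and 0 on the left (median 0.12). They included the chaperone Calr (0.23 ± 0.19), Atf4 itself (0.28 ± 0.20) and the serine synthesis enzymes Phgdh (0.38 ± 0.27) and Psat1 (0.36 ± 0.31). Nuclear-encoded oxidative phosphorylation genes were nearer to 0 (median 0.07, 3 of 42 higher on the right without overlap and 0 on the left). The shares without overlap on the right in the cholesterol, ribosomal and stress lists were above the 9.72% of all genes. But no gene of these lists was called between pMC right and pMC left in the fit of 18 libraries. In control mice the median side differences were 0.01 (cholesterol), 0.23 (ribosomal) and 0.16 (stress).

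**Figure D4:**
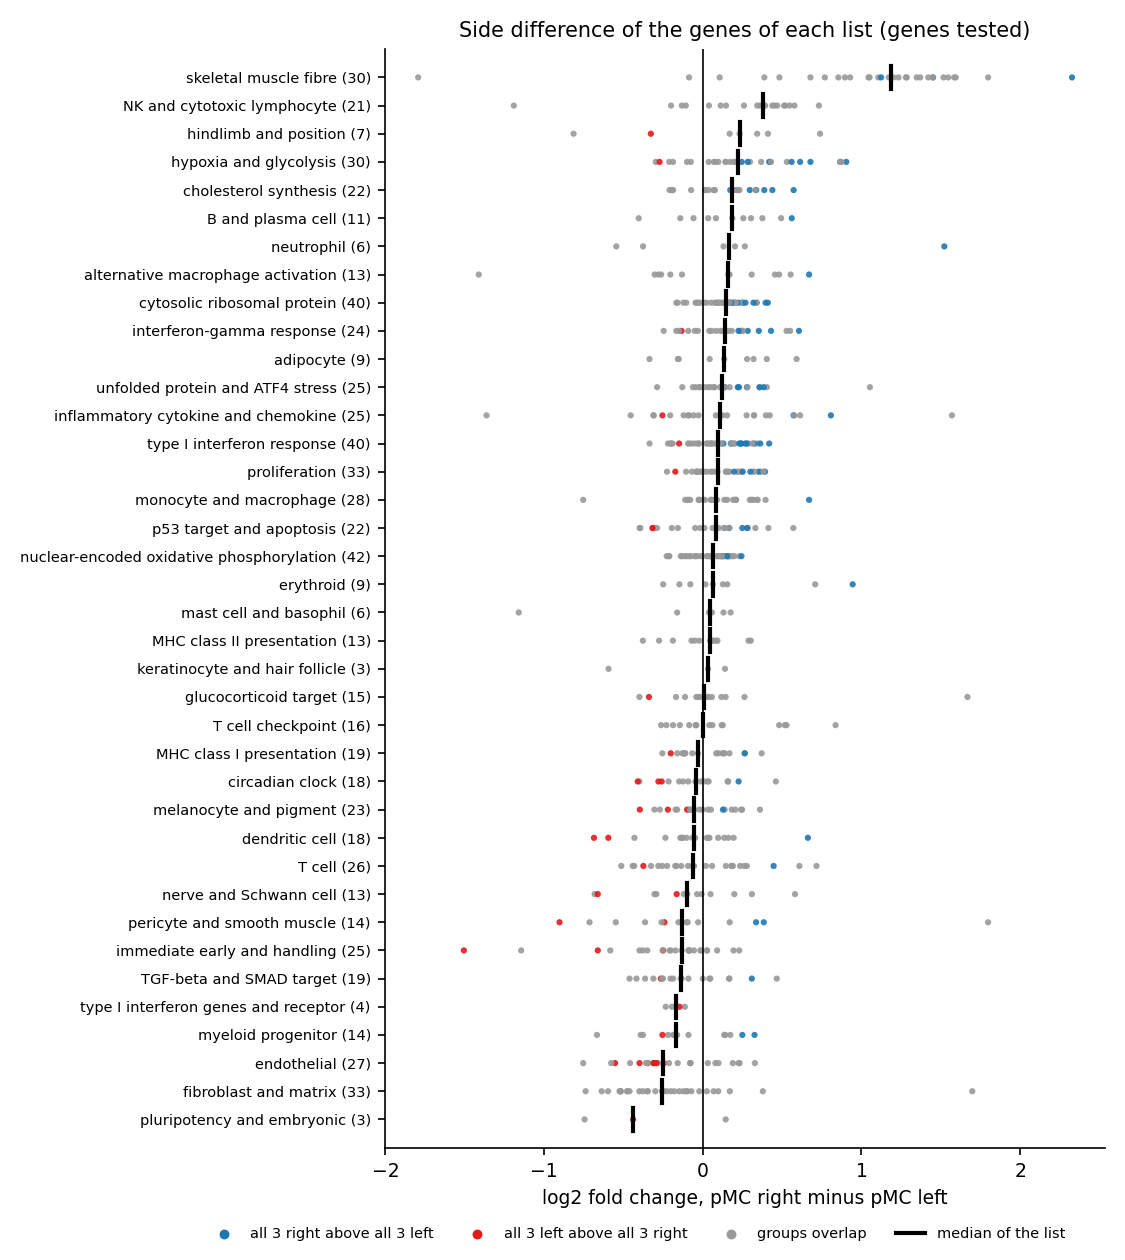
Log2 fold change of pMC right minus pMC left for each tested gene (points) of the 38 lists, with the number of genes tested in brackets and the median of each list as a black bar, ordered by the median. Blue points have all 3 right libraries above all 3 left ones, red points the reverse, and the medians of all lists other than skeletal muscle fibre (1.19) lie between -0.44 and 0.38.

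Most endothelial genes had lower values on the right, and none passed the test. Of 27 endothelial genes, 20 were below 0, 7 were higher on the left without overlap and 0 on the right, with a median of -0.25. Over all genes, 10.1% were higher on the left without overlap. Eng, a co-receptor on proliferating endothelium, was at 173, 149 and 144 CPM on the right and 182, 223 and 188 CPM on the left (-0.35 ± 0.23). Flt4, the receptor for lymphatic growth factors, was at 31.4, 25.7 and 26.2 CPM against 33.5, 35.9 and 33.8 CPM (-0.31 ± 0.18), and Pecam1, an adhesion molecule of all endothelium, at 21.4, 20.9 and 20.1 CPM against 22.2, 23.2 and 28.5 CPM (-0.24 ± 0.21). In each of them all left libraries were higher, with right 1 nearest to them. The summed CPM of the list was 460, 407 and 426 on the right and 480, 528 and 537 on the left. Without left 3 the list's median was -0.10. In control mice the endothelial list's median side difference was 0.07, and in IFN-alpha-pMC mice it was 0.10. No endothelial gene was called in the fit of 18 libraries. In the fit of the 6 libraries less right 1, chosen after the data were seen, 2 of 27 were called lower, where 768 of 14358 genes were. They were Eng (-0.43 ± 0.11, adjusted p = 0.0403 by edgeR) and Flt4 (-0.40 ± 0.10, adjusted p = 0.0369 by edgeR). Right 1 was the right library nearest to the left ones in both genes, so leaving it out favoured these calls. The same fit less right 3 called 6 genes, none of them endothelial, and less any other single library it called 0. Of 33 fibroblast and matrix genes, 27 were below 0 (median -0.26) but none separated the sides. The matrix list's median side difference was 0.31 in control mice and 0.53 in IFN-alpha-pMC mice. Col1a1, the main collagen chain, was at 31.7, 23.5 and 73.0 CPM against 44.2, 43.3 and 88.8 CPM (-0.46 ± 0.59), where the number 3 library of each side was the highest. Relative to the mean over the 6 libraries, the median log2 level of the matrix list was 0.46 in right 3, above left 1 (-0.11) and left 2 (-0.08).

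Skeletal muscle fibre genes had the largest median of any list (1.19 over 30 genes, 28 of them above 0). The libraries of a side were uneven in them. Acta1, skeletal muscle actin, was at 28.1, 39.8 and 30.7 CPM on the right and at 0.43, 30.8 and 22.1 CPM on the left. Left 1 was far below the other 5 libraries, and left 2 reached into the right range. Myh4, a fast myosin heavy chain, was at 8.13, 47.4 and 29.4 CPM against 0.129, 14.9 and 13.4 CPM (1.59, 95% interval -0.94 to 4.12), which overlapped. Relative to the mean over the 6 libraries, the median log2 level of the list was 0.03, 1.13 and 0.36 on the right and -1.51, 0.23 and -0.20 on the left. Without left 1 the median difference of the list was 0.64. The list's median side difference was 0.95 in control mice and 1.44 in IFN-alpha-pMC mice. Myl1 (1.45 ± 1.03), Xirp2 (2.33 ± 1.25) and Actn2 (1.12 ± 1.06) were the 3 members without overlap, 3 of 30 where 9.72% of all genes were so. Of the 14 genes with a mean of at least 5 CPM that differed by more than 1 log2 unit, 7 were on the muscle list. How much muscle tissue each sample held was not recorded in the labels, and its part in other differences was not tested. Among the erythroid genes, Hba-a1, a globin chain, was at 21.3, 18.85 and 43.6 CPM against 8.635, 16.8 and 18.2 CPM (0.94 ± 0.51), and Tfrc, the transferrin receptor, at 388, 325 and 181 CPM against 238, 145 and 164 CPM (0.71 ± 0.25, unadjusted p = 0.0123 by edgeR). Hba-a1 separated the sides narrowly, and Tfrc did not because right 3 was below left 1. The side difference of Hba-a1 was 1.69 ± 0.52 in control mice and 0.47 ± 0.54 in IFN-alpha-pMC mice. For the erythroid list the median side difference was 0.06 in pMC mice, 1.37 in control mice and -0.37 in IFN-alpha-pMC mice.

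Genes of early myeloid and of pluripotent cells were listed as possible traces of the injected cells. Of 20 myeloid progenitor genes, 14 could be tested (median -0.17), and Mpo and Ctsg, granule enzymes of early myeloid cells, had 0 counts in all 6 libraries. Spi1, the factor that defines myeloid cells, was at 11.5, 14.1 and 14.7 CPM on the right and 13.1, 16.2 and 16.4 CPM on the left (-0.18 ± 0.16), and Cebpa was at 4.48, 4.80 and 6.91 CPM against 6.06, 9.48 and 10.2 CPM (-0.67 ± 0.24, unadjusted p = 0.0125 by edgeR). Cebpa overlapped only through right 3. Higher on the right without overlap were 2 of the 14 tested members, the chromatin gene Bmi1 (200, 247 and 222 against 194, 156 and 185 CPM, 0.33 ± 0.16) and Mdm2 (0.25 ± 0.19). On the left 1 member was higher without overlap. Among all genes tested, 9.72% were so on the right and 10.1% on the left. The pluripotency genes Pou5f1, Sox2, Lin28a and Zfp42 had 0 counts in all 18 libraries. Xist, the RNA of the inactive X chromosome, was at 13.3 to 24.8 CPM on the right and 16.75 to 20.3 CPM on the left, and the Y-linked genes Ddx3y, Kdm5d and Eif2s3y had 0 counts in every library. A count of 0 allows up to 0.144 to 0.166 CPM per right library for these genes, and their level in the injected cells was not measured here.

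Among all genes with at least 5 CPM on average, 1223 of 10761 were higher in every right library and 1250 in every left one. The largest of the first kind were led by Srp54c, a copy of the signal recognition particle gene Srp54 (11.7, 8.875 and 7.12 CPM against 5.499, 1.13 and 3.01 CPM, 1.50 ± 0.79), and Myl1. Srp54c belongs to a family of near-identical copies, and pairs that aligned more than once were not counted, so its level is uncertain, as is that of Pgk1-rs7, a copy related to Pgk1 (0.93 ± 0.37). The predicted genes Gm15501 (0.99 ± 0.51), Gm7846 (0.65 ± 0.40) and Gm13461 (0.63 ± 0.43) were in the same set. The others included Car9, Bnip3, Hba-a1 and Pdk1, given above, Hapln1, a link protein of hyaluronan matrix (21.0, 40.4 and 19.9 against 18.8, 16.6 and 13.6 CPM, 0.73 ± 0.28), Serpinb1a, a protease inhibitor (0.67 ± 0.27), Ctla2a (0.64 ± 0.43), and Gatm, an enzyme of creatine synthesis (0.62 ± 0.35). In Hapln1 the height of right 2 made up most of the difference.

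The 15 genes with the lowest differences included these. Antxr1, a receptor that binds collagen, was at 8.075, 5.04 and 12.5 CPM on the right and 12.7, 13.7 and 15.7 CPM on the left (-0.72 ± 0.26). Right 3 was close to left 1, and the other right libraries were well below. Sox9, a neural crest and cartilage factor, was at 10.4, 10.1 and 13.4 CPM against 14.2, 19.4 and 20.2 CPM (-0.67 ± 0.20, unadjusted p = 0.00361 by edgeR). Its sides did not overlap. Lama5, a laminin chain of basement membrane, stood at -0.64 ± 0.53, the metalloproteinase Adam19 at -0.64 ± 0.26, Scarf2 at -0.60 ± 0.25 and Chadl, a matrix protein, at -0.60 ± 0.34. Hhipl1 (-0.68 ± 0.26), the chloride channel Ano1 (-0.62 ± 0.35), the sulfate transporter Slc13a4 (-0.62 ± 0.24), Klhl29 (-0.61 ± 0.30), Rasl10b (-0.64 ± 0.27), Cacnb3 (-0.69 ± 0.28) and C130021I20Rik (-0.71 ± 0.21) completed the named ones. The 3 remaining genes of both sets, among them ENSMUSG00000079002 (-0.63 ± 0.17), had no symbol in the table used.

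The side difference of pMC mice was set against that of untreated mice. No gene passed (0% of 14849 in either direction by edgeR, smallest adjusted p = 1.0), 102 genes had an unadjusted p under 0.05, and DESeq2 called 0. In untreated mice the sides themselves gave no call (0% in either direction). Bnip3 ranged from 63.25 to 259 CPM among the untreated right tumours, and the pMC side difference minus the control side difference was 0.39 ± 0.68 for Bnip3. For Pdk1 it was 0.45 ± 0.26.

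Set against IFN-alpha-pMC mice, the side difference of pMC mice was lower for 56 genes, among them Prf1, Gzma and Irf7. In IFN-alpha-pMC mice 369 genes were higher on the injected side (2.49% of genes) and 6 lower (0.0404%). In the direct test of the difference, 56 genes had a lower side difference in pMC mice (0.377% of genes) and 2 a higher one (0.0135%). The 58 genes had a median log2 side difference of -0.21 in pMC mice (range -1.28 to 0.74) and of 1.52 in IFN-alpha-pMC mice (range -1.87 to 3.45), and all 58 were called between the sides in IFN-alpha-pMC mice. Perforin is an example. Prf1 stood at 0.15 ± 0.36 in pMC mice and 2.94 ± 0.34 in IFN-alpha-pMC mice, a gap of -2.79 ± 0.49 (adjusted p = 0.0245 by edgeR). Gzma (0.26 ± 0.47 against 3.45 ± 0.45), Cd8b1 (-0.33 ± 0.33 against 2.08 ± 0.32), Cd3g (-0.09 ± 0.28 against 1.85 ± 0.27), Ly6c2 (0.09 ± 0.29 against 2.21 ± 0.29) and Irf7 (-0.04 ± 0.18 against 1.23 ± 0.18) were further members. Of the 58 genes, 18 were on any list. Called lower were 5 of 26 T cell genes, 3 of 21 NK and cytotoxic genes, 2 of 28 macrophage genes and 2 of 19 MHC class I genes (H2-Q4 and H2-Q6). In the type I interferon response list it was 1 of 40 genes, and in the interferon-gamma response list 0 of 24. The 10 genes with the smallest p shared an adjusted p of 0.0228 by edgeR. They were Adam8, a sheddase of myeloid cells (-0.17 ± 0.25 against 2.13 ± 0.24), Rftn1, a raft protein (-0.72 ± 0.20 against 1.11 ± 0.20), Fam107b, B4galnt1, Arhgap45, Crlf2, the TSLP receptor (-0.79 ± 0.25 against 1.35 ± 0.24), Thy1, Irf5, an interferon regulatory factor (-0.21 ± 0.18 against 1.33 ± 0.18), Arrb2 and Rhof. Rftn1 was at 3.48, 3.07 and 3.48 CPM on the pMC right and 5.11, 5.84 and 5.58 CPM on the pMC left, so that its left libraries were the higher ones in every case. The 2 genes of the opposite kind were Nsdhl, an enzyme of cholesterol synthesis (0.30 ± 0.14 against -0.68 ± 0.14), and the predicted gene Gm15754 (0.74 ± 0.36 against -1.87 ± 0.39). The counts changed when single libraries were left out, which also left fewer libraries in the fit. None of the 58 was left without pMC right 1, pMC right 2, pMC left 2 or pMC left 3, or without IFN-alpha-pMC right 2, right 3, left 1 or left 2, where edgeR called 0 genes and had 1057 to 2121 at an unadjusted p under 0.05, with smallest adjusted p of 0.0549 to 0.087. There were 36 calls without IFN-alpha-pMC left 3, and 56 to 85 when each of the remaining 3 libraries was left out.

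**Figure D5:**
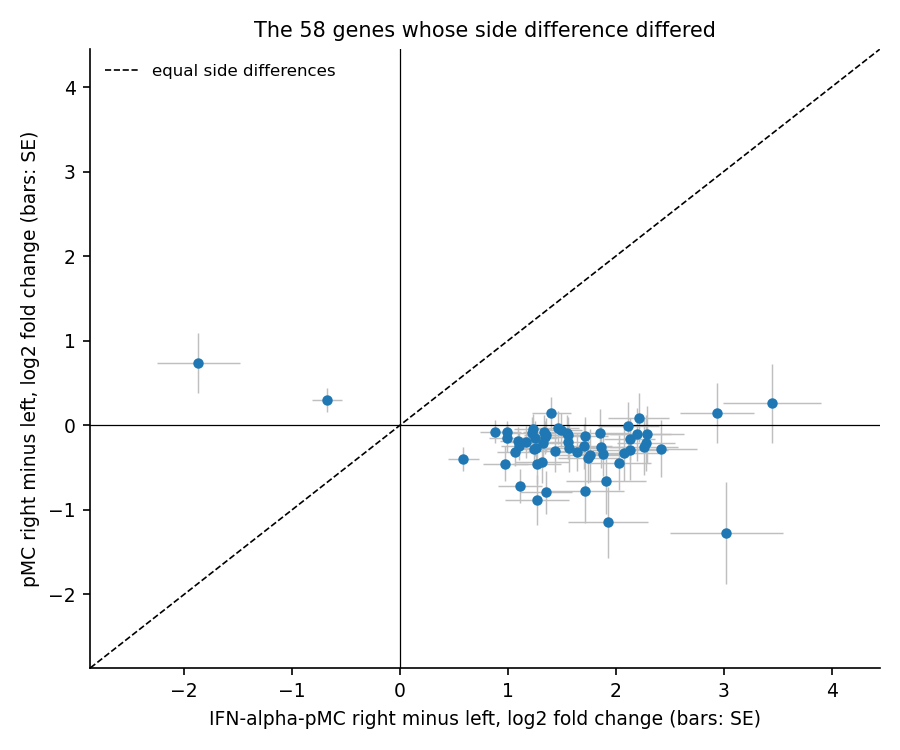
Log2 fold change of right minus left in pMC mice (vertical axis) against that in IFN-alpha-pMC mice (horizontal axis) for the 58 genes whose side difference differed between the treatments, with bars of 1 SE and a dashed line of equality. The 56 genes below the line lie near or under 0 on the pMC axis (median of all 58 -0.21) and between 0.59 and 3.45 on the IFN-alpha-pMC axis.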

How the data were processed

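Gene counts were deposited by the authors as 1 file of raw counts of read pairs per library, with no normalization. Per the submitters' processing notes, reads were handled with HISAT2 2.1.0, Trimmomatic 0.36, CASAVA 1.8.2 and bcl2fastq, checked with FastQC, and counts with DESeq2 1.20.0 and HTSeq 0.10.0 (build mm9, in no stated order), and per the labels' protocols the libraries were stranded mRNA libraries. For the annotation release and the counter's strand setting, the source is silent (not given in the sources used here), and antisense overlaps may not be told apart. Pairs aligned more than once were not counted to genes (20.1 to 22.0% of pairs in the 6 pMC libraries), so near-identical copies are uncertain. The counter's 5 summary rows were left out. In the 6 libraries 64.5 to 66.7% of pairs fell on genes.

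Symbols were matched by Ensembl ID to a GENCODE M21 table for 32897 of 37620 IDs. The test was edgeR's quasi-likelihood F test (version 4.0.16, R 4.3.3, two-sided) with TMM scaling and filterByExpr, with 1 mean for each of 6 groups over all 18 libraries (12 residual degrees of freedom) and Benjamini-Hochberg adjustment over all 14849 genes. CPM are counts per 1000000 of the scaled library total, SE is the log2 fold change divided by the root of F, and intervals use the fit's degrees of freedom. The script was tested on simulated data. The members, the 38 gene lists and the rule for named genes were chosen with earlier results of these data known. The rule named the 15 highest and 15 lowest log2 fold changes among genes with a mean of 5 CPM or more whose sides do not overlap, the 4 members of each list with the highest mean CPM and any called ones, and the 10 smallest p of a side difference. Other genes named from the lists, from the fit of 6 libraries and from the called side differences were chosen after their values were seen. Alternatives were DESeq2 1.42.0, RLE scaling, other filters, the 6 libraries alone, a replicate block and leaving out each library. The promoter windows came from RefSeq on GRCm38.p6.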

Additional observations from a re-analysis of the deposited data

Results flagged for a closer look

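For 58 genes the right minus left difference of pMC mice differed from that of IFN-alpha-pMC mice by edgeR's test of the difference itself (adjusted p under 0.05). On the log2 scale, pMC side difference minus IFN-alpha-pMC side difference, the values of the 10 genes with the smallest p were -2.30 for Adam8, -1.83 for Rftn1, -1.96 for Fam107b, -2.12 for B4galnt1, -1.52 for Arhgap45, -2.15 for Crlf2, -1.84 for Thy1, -1.54 for Irf5, -1.07 for Arrb2 and -2.22 for Rhof.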

How the results depend on the processing

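The count of 0 genes between pMC right and pMC left held under DESeq2, RLE scaling, both other filters, the 6 libraries alone and each left-out library in the fit of 18 libraries. The next 2 alternatives were chosen after seeing the data. Without the 3 libraries that stood apart in other groups (control right 3, IFN-alpha-pMC right 3 and IFN-alpha-pMC left 1), pMC right against left still gave 0 genes (2740 at an unadjusted p under 0.05), and the difference from the control side gave 1 gene, Gm15920 (1.615 ± 0.20). When single libraries were left out of the fit of the 6 libraries alone, the count ran from 0 to 1734. The 1734 genes (966 higher and 768 lower on the right) came without right 1, and 6 genes (Bnip3, Car9, Des, Sln, Sumo2 and Cd5l) without right 3. The cause was not tested. Without right 1 Bnip3 was at 0.86 ± 0.12 (adjusted p = 0.0264 by edgeR) and Higd1a at 0.64 ± 0.10. For the difference from the IFN-alpha-pMC side the count of 58 became 257 with DESeq2 (51 higher and 206 lower) and ran from 0 to 85 when single libraries were left out. The cause was not tested.

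The numbers were not taken to pair right and left libraries, and the labels do not say whether they do. The correlations of same-numbered deviations from the group means were 0.11, -0.03 and 0.15 in the pMC groups, not all over 0.1. With the number as a replicate block, 0 genes were called between pMC right and left in the fit of 18 libraries and in that of 6, 0 for the difference from the control side, and 133 for the difference from the IFN-alpha-pMC side.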

Other observations

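Genes that respond within minutes to handling or stimulation were measured on both sides. Of 25 immediate early and handling genes, 20 were below 0 and 3 had all left libraries higher (10.1% of all genes did). Their median was -0.13, and none was called by edgeR in the fit of 18 libraries. Fosb was at 0.443, 0.480 and 0.535 CPM on the right and 1.46, 0.690 and 1.96 CPM on the left (-1.51 ± 0.52, unadjusted p = 0.0100 by edgeR), and every left library was higher. Klf2, a factor of resting endothelium and T cells, was at 4.65, 4.84 and 11.6 CPM against 7.91, 19.8 and 18.9 CPM (-1.15 ± 0.42), with right 3 inside the left range. Clock genes split in direction. Of 18 tested, 1 was higher on the right without overlap and 3 on the left, where 9.72% and 10.1% of all genes were. Nr1d1 was at 8.96, 8.44 and 8.78 CPM against 10.7, 13.2 and 10.9 CPM (-0.41 ± 0.27), Bhlhe41 at -0.28 ± 0.20, and Cry1 at 0.23 ± 0.15, each without overlap.

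Genes of limb position were measured in the tumours of both hindlimbs. Tbx4, the hindlimb factor, was at 49.3, 38.8 and 40.2 CPM on the right and 53.6, 56.2 and 51.3 CPM on the left (-0.33 ± 0.21), and all left libraries were higher. Hoxa10 was at 51.3, 62.3 and 74.99 CPM against 53.9, 53.4 and 53.3 CPM (0.23 ± 0.28), which overlapped through right 1. Sumo2, which encodes a protein tag, was at 104, 120 and 59.6 CPM against 60.6, 46.2 and 49.0 CPM (0.86 ± 0.33), and Cd5l, a macrophage secreted protein, at 0.277, 0.384 and 8.30 CPM against 3.05, 6.84 and 8.02 CPM. In both genes right 3 was like the left libraries and the other right ones were not.

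Lists not described so far had these median log2 differences (right minus left). Inflammatory cytokines and chemokines were at 0.11 over 25 genes, alternative macrophage activation at 0.16 over 13, and mast cells and basophils at 0.05 over 6. The p53 target and apoptosis list was at 0.08 over 22, the TGF-beta and SMAD target list at -0.14 over 19 and the glucocorticoid target list at 0.01 over 15. Pericyte and smooth muscle genes were at -0.13 over 14, nerve and Schwann cell genes at -0.10 over 13, adipocyte genes at 0.14 over 9 and erythroid genes at 0.06 over 9. The clock list was at -0.05 over 18, the hindlimb list at 0.23 over 7, the neutrophil list at 0.17 over 6, the type I interferon gene and receptor list at -0.17 over 4, the keratinocyte and hair follicle list at 0.03 over 3 and the pluripotency list at -0.44 over 3. No gene of these lists was called between pMC right and pMC left by edgeR in the fit of 18 libraries. For the difference from the IFN-alpha-pMC side, the chemokine Ccl11 (adjusted p = 0.0241 by edgeR) and the TGF-beta target Tgfbi (adjusted p = 0.0309 by edgeR) were called lower.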
